A study of Mus musculus with 8 samples.

Results

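The core circadian clock loop was examined in the epididymal fat pad, a visceral depot of white adipose tissue, of mice with and without the succinate receptor SUCNR1. The members are 10 listed genes. *Arntl* (BMAL1), *Clock* and *Npas2* are the activators, *Cry1*, *Cry2*, *Per1*, *Per2* and *Per3* the repressors, and *Nr1d1* and *Nr1d2* (REV-ERBα and REV-ERBβ) the nuclear receptors of the second loop. Of these, 9 had a probe set (the group of array probes summarised as 1 value) annotated to a single gene, out of 18820 genes measured in this way. *Nr1d1* had 0 such probe sets. Its 2 probe sets carry the symbol *Thra* as well, and the RefSeq spans of these neighbours overlap by 1075 bases on chromosome 11 (GRCm38.p6), so their signal cannot be given to 1 gene. The members were chosen by their place in the loop and with their log2 differences between *Sucnr1*-/- and WT mice in these arrays in view. That difference is therefore given for the members as a description, without a test.

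Both groups were male C57BL/6 mice bred by intercrossing *Sucnr1*+/- animals, so that WT mice were littermates of the *Sucnr1*-/- mice. The knockout is a germline one, in which an IRES/*lacZ*/neo cassette replaced a large part of exon 2, and it affects every cell type of the fat pad. By the sample records, feeding with a semi-synthetic low-fat diet began at 8 to 10 weeks of age and lasted 16 weeks. Tissue was then taken at 24 to 26 weeks. The paper's methods give a wider range of ages at the start, with a higher upper end. There were 4 WT and 4 *Sucnr1*-/- mice with 1 Affymetrix whole-transcript array each. The sources used here give neither the hour of tissue collection, on which the level of a clock gene depends, nor an array batch.

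In the core loop, BMAL1 pairs with CLOCK or NPAS2 and binds E-box sequences, which switches on the *Per*, *Cry* and *Nr1d* genes. PER and CRY proteins then accumulate and block the activators, while the REV-ERB receptors repress *Arntl* and *Npas2*, and the ROR receptors activate them through the same element. The cycle takes about a day and runs in most tissues, adipose tissue included. In it, *Arntl* and *Npas2* are high when *Per3*, *Nr1d2* and the output factors *Dbp*, *Tef* and *Hlf* are low.

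The binding elements of the loop are shown for 4 members, 1 or more for each kind of element found, since these elements tie the activators, the *Per* genes and the REV-ERB receptors to each other. RefSeq windows of 300 bases (250 before and 50 after a transcription start, GRCm38.p6) were on hand for 9 members, all but *Per2*, in 13 windows. Some windows of the same gene overlap, as for *Arntl* and *Clock*, so the windows are not all separate stretches. Capitals mark a motif found by searching both strands, the sequences run 5′ to 3′ on the strand of the gene, and no match overlapped another. *Per3* (chr4:151044806-151044885, minus strand, 220 to 141 bases before the start) holds a pair of D-boxes, the element of the output factors DBP, TEF and HLF. *Per1* (chr11:69098749-69098818, plus strand, 200 to 131 bases before a start that lies within the annotated span of the gene) holds an E-box. *Cry1* (chr10:85185085-85185154, minus strand, 100 to 31 bases before the start) holds an E-box and, on the opposite strand, the E-box variant. *Arntl* (chr7:113207530-113207559, plus strand, 20 to 49 bases after its second annotated start) holds the element shared by the REV-ERB and ROR receptors. That start too lies within the annotated span of its gene.
Per3: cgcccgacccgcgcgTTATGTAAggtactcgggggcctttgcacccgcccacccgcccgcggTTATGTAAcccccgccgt
Per1: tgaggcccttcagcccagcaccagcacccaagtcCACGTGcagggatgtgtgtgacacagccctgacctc
Cry1: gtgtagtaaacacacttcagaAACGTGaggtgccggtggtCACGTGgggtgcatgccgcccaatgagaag
Arntl: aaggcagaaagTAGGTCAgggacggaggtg

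The E-box CACGTG was in 2 of the 13 member windows, against 7.15% of all 32851 windows. Its variant CACGTT was in 3, those of *Cry1*, *Cry2* and *Nr1d1*, against 4.68% of all. The D-box, searched as TTATGTAA and TTACGTAA, was in 1 window (1.06% of all), the element TAGGTCA in 1 (2.61% of all), and the cAMP response element TGACGTCA in 0 (1.79% of all). These matches are letters in a short window and not measured binding. A window without a match says nothing of binding outside it.

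The fat pads carried the marks of their tissue. The 9 measured adipocyte markers lay at a median percentile of 99.8 among all genes, and 6 measured epididymis markers at 21.0. The mean log2 difference of the epididymis markers from the WT mean was highest in WT replicate 2 (0.28), against −0.17 to 0.05 in the other mice. Of these markers, *Lcn8* was at 5.96 in WT replicate 2 and at 4.39 to 4.65 in the other mice. *Sucnr1* was lower in each *Sucnr1*-/- mouse (log2 5.41 to 7.11) than in each WT mouse (8.68 to 9.78); where its probes lie relative to the exchanged part was not examined. Array medians lay between 6.28 and 6.36, and 2 arrays correlated at 0.981 to 0.993. With limma and Benjamini-Hochberg adjustment, 0 of the 18820 genes (0%) had an adjusted p under 0.05, and 1284 (6.82%) had an unadjusted one under 0.05. *Sucnr1* itself, 8.31-fold lower in *Sucnr1*-/- mice, had an adjusted p of 0.321 with limma. A gene that did not pass here is therefore not shown to be unchanged. The methods' t-test gave 686 higher and 561 lower genes unadjusted and 0 adjusted.

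Between genotypes, the activators *Arntl* and *Npas2* had lower means in *Sucnr1*-/- mice and the 3 *Per* genes and *Nr1d2* higher ones. All 3 activators had a lower mean, and all 6 measured repressors and second-loop receptors a higher one. The differences of *Clock*, *Cry1* and *Cry2* were the smallest of the 9. The median absolute log2 difference of the members was 0.42, against 0.08 over all genes, and it was 0.21 without WT replicate 1 and 0.28 without WT replicate 3. Groups did not overlap for 1 of the 9 members, *Per2*, against 4.24% of all genes in either direction, 2.37% with *Sucnr1*-/- higher and 1.87% with *Sucnr1*-/- lower. Since this contrast chose the members, nothing is read from that comparison. The count rested on which mice were included. It was 5 without *Sucnr1*-/- replicate 1 (*Arntl*, *Per1*, *Per2*, *Per3* and *Nr1d2*), where 10.6% of all genes did not overlap. It was 2 without WT replicate 2 (*Arntl* and *Per2*, 8.4% of all genes) and 2 without WT replicate 4 (*Per2* and *Per3*, 8.48% of all genes). Values below are log2 RMA expression in the order of replicates 1 to 4, and every difference is the *Sucnr1*-/- mean less the WT mean, in log2 units, with the standard error of the limma fit.

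*Arntl*, the obligate activator of the loop, was at 8.17, 7.24, 8.28 and 7.48 in WT and at 7.37, 6.77, 7.01 and 6.61 in *Sucnr1*-/- mice. WT replicates 1 and 3 stood above the other 6 mice, and the groups overlapped only through WT replicate 2, which lay below *Sucnr1*-/- replicate 1. The means were 7.79 ± 0.51 (SD, n = 4) and 6.94 ± 0.33 (SD, n = 4), a difference of −0.86 (SE 0.26) or 1.81-fold lower. This was 1.98 times the pooled SD, and leaving out 1 mouse at a time gave −1.04 to −0.69.

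*Npas2*, which can take the place of CLOCK beside BMAL1, was at 7.76, 7.01, 8.77 and 7.0 in WT and at 7.32, 7.06, 6.94 and 6.57 in *Sucnr1*-/- mice. A single mouse, WT replicate 3, was more than a log2 unit above every other. WT replicates 2 and 4 lay among the *Sucnr1*-/- mice. The difference was −0.66 (SE 0.37), and without WT replicate 3 it was −0.28 (SE 0.23).

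*Clock*, the usual partner of BMAL1 and a gene whose transcript cycles weakly in most tissues, was at 10.48, 10.49, 10.78 and 10.73 in WT and at 10.54, 10.52, 10.61 and 10.37 in *Sucnr1*-/- mice. The groups overlapped broadly. The difference of −0.11 (SE 0.09) was below the pooled SD, at 0.81 of it, and without WT replicate 3 it was −0.053.

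Among the repressors, *Per3*, which is dispensable for rhythm but cycles with high amplitude in peripheral tissues, had the largest difference of the 9 members. It was at 6.89, 8.11, 7.57 and 8.55 in WT and at 8.26, 9.11, 8.74 and 9.14 in *Sucnr1*-/- mice. WT replicates 1 and 3, the mice with the most *Arntl*, had the least *Per3*, and only WT replicate 4 reached above *Sucnr1*-/- replicate 1. The means were 7.78 ± 0.71 (SD, n = 4) and 8.81 ± 0.41 (SD, n = 4), a difference of 1.03 (SE 0.35) or 2.04-fold higher, with 0.73 to 1.29 on leaving out 1 mouse at a time.

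*Per2*, a limb of the negative feedback that is also induced by feeding and by glucocorticoids, was at 7.80, 8.57, 8.20 and 8.59 in WT and at 8.67, 9.18, 8.66 and 9.07 in *Sucnr1*-/- mice. Each *Sucnr1*-/- mouse lay above each WT mouse, but the lowest *Sucnr1*-/- mouse (8.66) and the highest WT mouse (8.59) were close. The means were 8.29 ± 0.37 (SD, n = 4) and 8.90 ± 0.27 (SD, n = 4), a difference of 0.60 (SE 0.20) or 1.52-fold higher. It stayed between 0.44 and 0.71 on leaving out 1 mouse at a time.

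*Per1*, the *Per* gene that responds fastest to glucocorticoids and cAMP, was at 9.18, 9.83, 10.18 and 10.04 in WT and at 9.78, 10.28, 10.34 and 10.53 in *Sucnr1*-/- mice. Unlike *Per2* and *Per3*, it was highest among WT mice in replicate 3. The low value of WT replicate 1 carried much of the difference of 0.42 (SE 0.23), which was 0.21 (SE 0.18) without that mouse.

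*Cry1* and *Cry2*, the cryptochromes that deliver the repression, differed little. *Cry1* was at 7.27, 7.10, 6.63 and 7.19 in WT and at 7.24, 7.02, 6.94 and 7.16 in *Sucnr1*-/- mice. The 4 *Sucnr1*-/- values lay inside the WT range, and the difference of 0.05 (SE 0.14) turned to −0.094 without WT replicate 3 and to −0.0043 without *Sucnr1*-/- replicate 1. *Cry2* was at 9.06, 9.48, 9.45 and 9.85 in WT and at 9.44, 9.60, 9.65 and 9.84 in *Sucnr1*-/- mice. These too lay inside the WT range, and the difference of 0.17 (SE 0.16) was 0.036 without WT replicate 1.

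*Nr1d2*, the measured REV-ERB receptor, was at 9.70, 10.29, 10.00 and 10.32 in WT and at 10.23, 10.44, 10.41 and 10.34 in *Sucnr1*-/- mice. WT replicates 1 and 3 were the lowest of all 8 mice, whereas WT replicates 2 and 4 lay among the *Sucnr1*-/- mice. The spread was wider in WT (SD 0.29, n = 4) than in *Sucnr1*-/- mice (SD 0.09, n = 4), and this difference in spread was not tested. The mean difference was 0.28 (SE 0.14), or 0.15 (SE 0.10) without WT replicate 1.

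**Figure D1:**
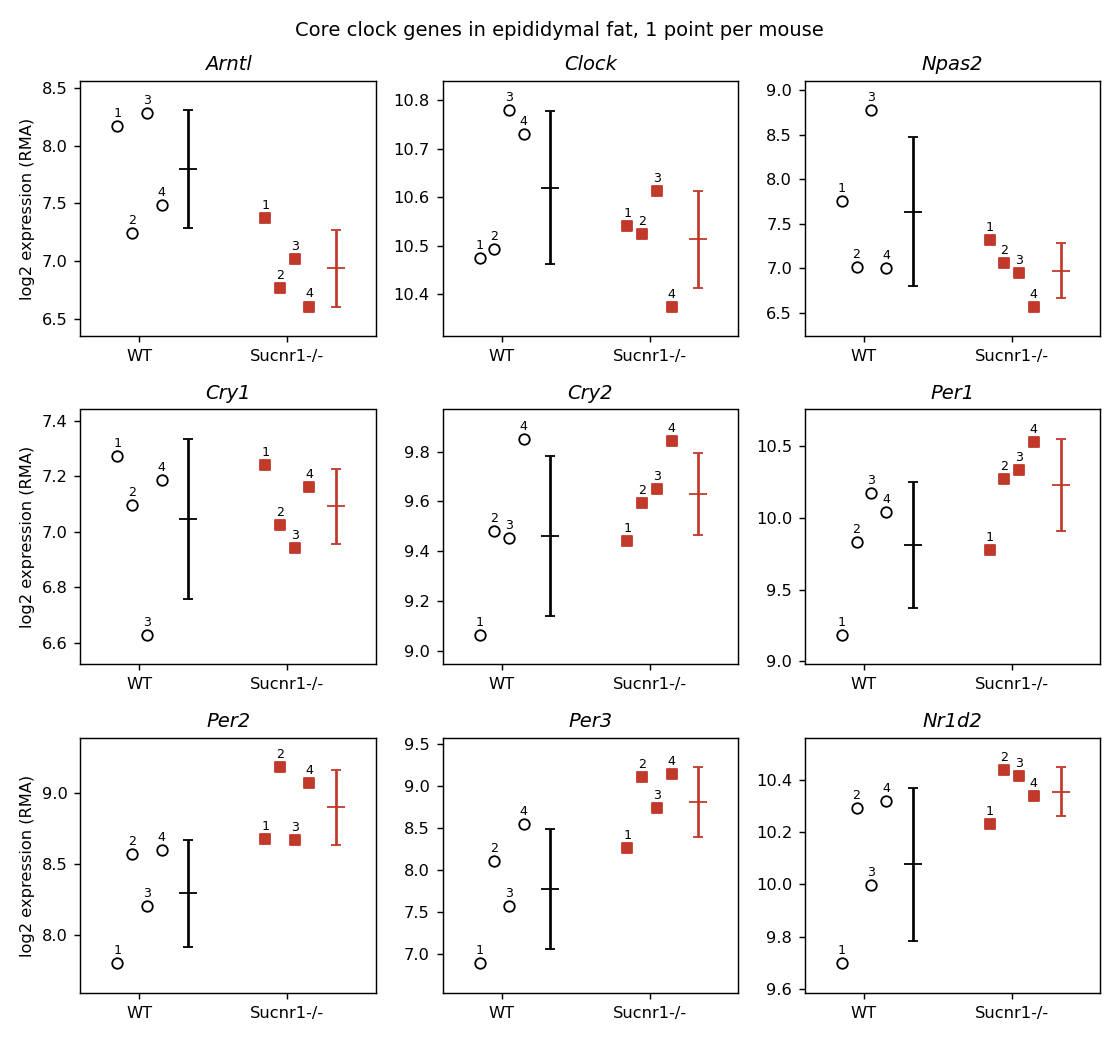
Log2 expression (RMA, vertical axes) of the 9 measured core clock genes, 1 point per mouse with its replicate number, open circles for WT and filled squares for *Sucnr1*-/-. Bars beside the points are the mean and SD of 4 mice, and the groups are separate for *Per2* alone.

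Within WT the mice formed no uniform group. WT replicates 1 and 3 combined high *Arntl* with low *Per3*, *Per2* and *Nr1d2*, and WT replicates 2 and 4 did the reverse. The range of *Arntl* among WT mice was 1.04 log2 units, larger than the difference of 0.86 between genotype means, and the WT range of *Per3* was 1.65 against a difference of 1.03. To put the activator and *Per* limbs on 1 scale, each gene was set relative to its WT mean. A balance was made by taking the mean of *Per1*, *Per2* and *Per3* from that of *Arntl* and *Npas2*. *Clock*, the activator with the smallest difference between genotypes (−0.11), was left out of it. This balance was 0.92, −0.80, 0.79 and −0.90 in WT replicates 1 to 4 and −0.64, −1.70, −1.35 and −2.08 in *Sucnr1*-/- replicates 1 to 4. *Sucnr1*-/- replicates 2 to 4 were lower than every WT mouse, while *Sucnr1*-/- replicate 1 lay above WT replicates 2 and 4. The genes of the balance were chosen with the genotype contrast in view, so nothing is read from how it sets the genotypes apart.

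**Figure D2:**
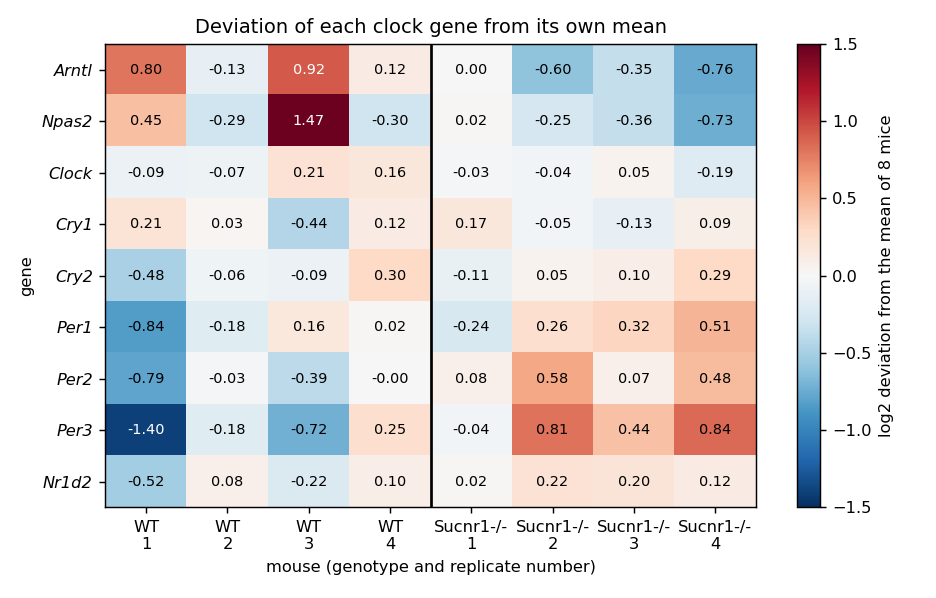
Log2 deviation of each core clock gene (rows) from its own mean over 8 mice (columns, WT left of the line and *Sucnr1*-/- right), red above and blue below the mean, with the value in each cell. WT 1 and WT 3 are red for *Arntl* and blue for *Per3*, and *Sucnr1*-/- 2, *Sucnr1*-/- 3 and *Sucnr1*-/- 4 show the opposite colours.

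The opposition of *Arntl* to the *Per* limb could be examined apart from the genotype contrast, by taking each mouse's deviation from the mean of its own genotype. Over the 8 mice these deviations of *Arntl* ran with those of *Npas2* (Pearson's r = 0.86, Spearman's rho = 0.90) and against those of *Per3* (r = −0.84, rho = −0.83). They also ran against *Per2* (r = −0.83, rho = −0.60), *Nr1d2* (r = −0.77, rho = −0.71) and *Cry2* (r = −0.65, rho = −0.69). Values were weaker for *Per1* (r = −0.44, rho = −0.05), *Clock* (r = 0.36, rho = 0.40) and *Cry1* (r = −0.26, rho = −0.07). None passed a two-sided exact permutation of mice within genotype (smallest possible p 0.00174) after adjustment over the 8 members. The exact permutation p of r was 0.0208 for *Npas2*, 0.0451 for *Per3* and 0.0556 for *Per2*, each with an adjusted p of 0.148. It was 0.101 for *Nr1d2* (adjusted 0.201), 0.163 for *Cry2* (adjusted 0.261), 0.392 for *Clock* and 0.389 for *Per1* (both adjusted 0.448), and 0.781 for *Cry1* (adjusted 0.781). The exact permutation p of rho was 0.0174 for *Npas2* (adjusted 0.139), 0.059 for *Per3* (adjusted 0.236), 0.198 for *Per2* (adjusted 0.317) and 0.122 for *Cry2* (adjusted 0.278). For rho it was also 0.139 for *Nr1d2* (adjusted 0.278), 0.944 for *Per1* (adjusted 0.944), 0.427 for *Clock* (adjusted 0.569) and 0.892 for *Cry1* (adjusted 0.944).

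Without WT replicates 3 and 2, the mice farthest from the median deviation of *Arntl*, r over the other 6 mice was 0.92 for *Npas2*, −0.94 for *Per3*, −0.90 for *Per2* and −0.77 for *Nr1d2*. It was −0.95 for *Per1* and −0.88 for *Cry2*, and turned sign for *Clock* (−0.13) and *Cry1* (0.39). The sign was the same within each genotype for *Npas2* (0.89 in WT and 0.86 in *Sucnr1*-/- mice), *Per2* (−0.83 in both), *Per3* (−0.78 and −0.99) and *Nr1d2* (−0.84 and −0.62). It was also the same for *Cry2* (−0.58 and −0.87), *Per1* (−0.21 and −0.92) and *Clock* (0.24 and 0.63). Only *Cry1* differed in sign (−0.43 and 0.3). Each of these values is over only 4 mice. Among the repressors themselves, *Per2* and *Per3* had an r of 0.94, *Per3* and *Nr1d2* of 0.92 and *Cry2* and *Per3* of 0.92 over the same deviations. *Cry1* had an r of −0.06 with *Per2*, −0.07 with *Per3* and −0.63 with *Per1*, and of −0.64 with *Npas2* and −0.63 with *Clock*.

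**Figure D3:**
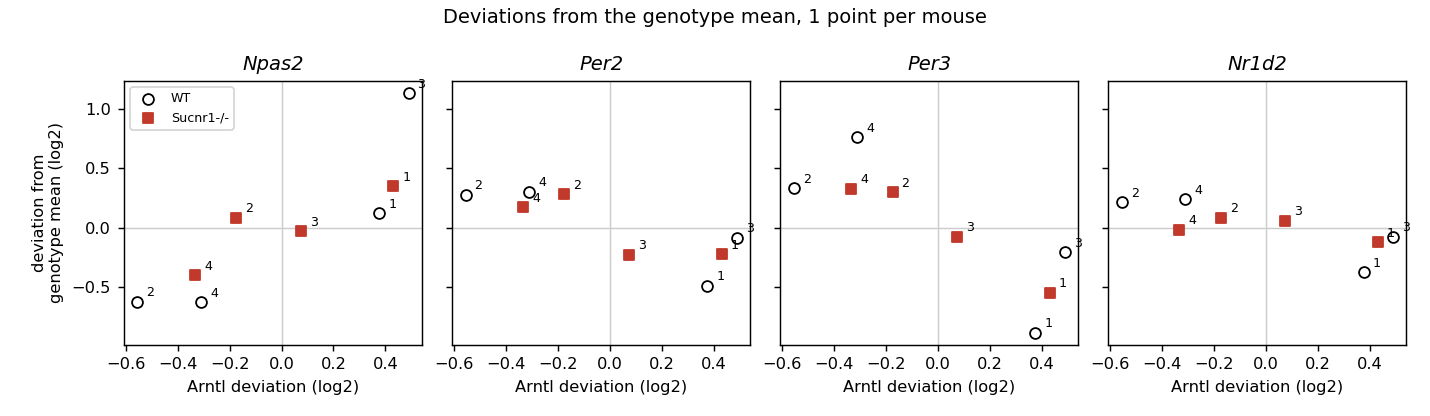
Deviation of *Npas2*, *Per2*, *Per3* and *Nr1d2* from the genotype mean (vertical axes, log2) against that of *Arntl* (horizontal axes, log2), 1 point per mouse with its replicate number, open circles for WT and filled squares for *Sucnr1*-/-. Points run upward for *Npas2* (r = 0.86) and downward for *Per2*, *Per3* and *Nr1d2*, in both genotypes.

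The genes most like *Arntl* within genotypes were looked up among 2464 genes of above-median level and a within-genotype SD of at least 0.2. Predicted genes, with Gm and Rik names, were left out of these. The highest r was that of *Tnip3* (0.962), followed by *Tyrobp*, an adaptor of myeloid receptors (0.961), *Tlr13* (0.948), *Cd68*, a macrophage marker (0.943) and *Ly86* (0.938). The lowest was that of *Mgp* (−0.964), followed by *Tef*, a clock output factor (−0.956), *Sorbs2* (−0.941), *Abcg2* (−0.917) and *Cspg4* (−0.915). With 8 mice, 26 of these genes reached an r of 0.9 and 7 an r of −0.9. *Per3* ranked 17th and *Per2* 20th from the lowest, and *Npas2* 38th from the highest. All these points share the 8 arrays, and the ranks are a description.

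Of the cell type markers, some ran with *Arntl* across the same mice, some against it, and some did neither. In bulk tissue, fewer cells of a type and less RNA per cell cannot be told apart. Within genotypes the median r with *Arntl* was 0.52 for 12 macrophage markers (11 positive, from −0.12 for *Cd163* to 0.94 for *Cd68*) and 0.85 for 6 T cell markers (0.80 to 0.90). It was 0.58 for 7 B cell markers (all positive), −0.73 for 8 endothelial markers (all negative) and −0.49 for 9 adipocyte markers (8 negative). It was −0.17 for stromal progenitor, −0.05 for mesothelial, −0.07 for skeletal muscle and −0.70 for the dim epididymis markers, against −0.06 over all other genes. These correlations share the 8 arrays and are a description. Between genotypes, 11 of 12 macrophage markers had a lower mean in *Sucnr1*-/- mice, with 0 passing limma after adjustment and 4 lower at an unadjusted p under 0.05. Their mean difference from the WT mean was 0.23, −0.16, 0.12 and −0.19 in WT and −0.23, −0.52, −0.36 and −0.35 in *Sucnr1*-/- mice. The groups did not overlap, but the lowest WT mouse (−0.19) and the highest *Sucnr1*-/- mouse (−0.23) were close. WT replicates 1 and 3 were again the highest. Of the 12 markers taken singly, groups did not overlap for 2, *Adgre1* and *Cd68*, against 1.87% of all genes with *Sucnr1*-/- lower. T cell markers were lower in 6 of 6 measured genes and B cell markers in 7 of 7, with overlapping groups. The mean log2 level of the macrophage list was 10.56 to 10.99 in WT and 10.24 to 10.53 in *Sucnr1*-/- mice, with *Lyz2* the brightest at 12.66. The part of these cells in the clock gene differences was not tested.

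Immediate early genes, which respond within minutes to handling and stress and share cAMP response with *Per1*, had a lower mean in *Sucnr1*-/- mice in 12 of 14 cases. With limma 0 passed after adjustment, and 1 was higher and 1 lower at an unadjusted p under 0.05. The largest differences were those of *Nr4a1* (−0.74, SE 0.25), *Fos* (−0.68, SE 0.31), *Egr2* (−0.62, SE 0.42) and *Nr4a3* (−0.61, SE 0.32). The gene that was higher, named after its value was seen, was *Jun* (0.28, SE 0.08; limma, unadjusted p = 0.00706, adjusted p = 0.712). It was the only gene of the list whose groups did not overlap, against 2.37% of all genes with *Sucnr1*-/- higher. The mean of the list relative to WT was 0.65, −0.14, −0.34 and −0.18 in WT and 0.31, −0.53, −0.38 and −0.69 in *Sucnr1*-/- mice. WT replicate 1 and *Sucnr1*-/- replicate 1 were thus highest. WT replicate 3, with high *Arntl*, was not among the high mice here. Without those 2 mice together, an alternative chosen after seeing the data, the difference was −0.87 for *Arntl*, 0.51 for *Per2*, 0.92 for *Per3* and 0.36 for *Per1*. For *Npas2* it was −0.74 and for *Nr1d2* 0.19. In the mice left, the immediate early list was still lower in *Sucnr1*-/- (−0.69 to −0.38) than in WT (−0.34 to −0.14). Leaving out those mice therefore did not make the genotypes alike in these genes, and nothing about handling is read from it. With these 3 mice per group 5 of 9 members did not overlap, and neither did 14.2% of all genes. The part of handling in the differences was not tested.

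**Figure D4:**
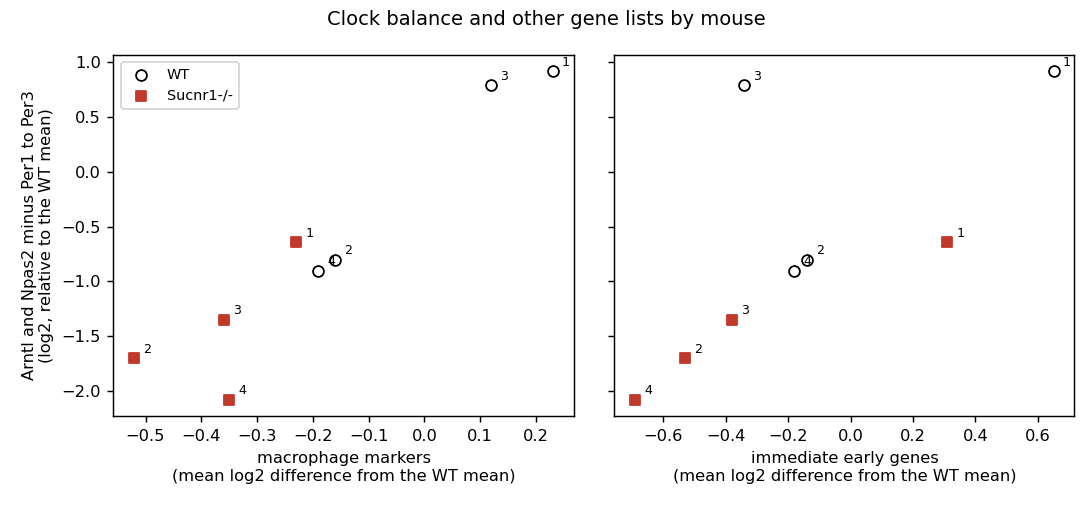
Balance of *Arntl* and *Npas2* over *Per1*, *Per2* and *Per3* (vertical axis, log2 relative to the WT mean) against the mean of macrophage markers (left) and immediate early genes (right, both log2 relative to the WT mean), 1 point per mouse with its replicate number. WT 1 and WT 3 lie at the top in both panels, but on opposite sides of the immediate early gene axis.

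Most output and second-loop factors had a higher mean in *Sucnr1*-/- mice. Of 11 listed genes 9 were measured, and 7 had a higher and 2 a lower mean, with a median difference of 0.15 against 0.01 over all genes. *Dbp* was among the listed genes not measured, so no value is given for it. None passed limma over all genes at an adjusted p under 0.05, and 2 were higher and 0 lower at an unadjusted p under 0.05. The share of all genes higher at that unadjusted threshold was 3.46%, and the share lower 3.36% (652 and 632 genes). With arrays centred on the median of all probe sets the split was 355 higher and 979 lower, with arrays centred on the median of their genes 1352 and 330, and without *Sucnr1*-/- replicate 2 it was 440 and 368. Groups overlapped for all 9.

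Of the PAR bZIP activators, which bind the D-boxes shown for *Per3*, *Hlf* was at 6.60, 7.32, 7.33 and 7.59 in WT and at 7.36, 7.90, 7.87 and 8.02 in *Sucnr1*-/- mice. It differed by 0.58 (SE 0.22; limma, unadjusted p = 0.0285, adjusted p = 0.712). *Tef* was at 7.85, 8.73, 8.07 and 8.62 in WT and at 8.51, 9.02, 8.66 and 9.05 in *Sucnr1*-/- mice, and differed by 0.49 (SE 0.22; limma, unadjusted p = 0.0492, adjusted p = 0.719). In both genes WT replicate 1 was the lowest of the 8 mice, as it was for *Per3*. *Nfil3*, the repressor that competes for the D-box, differed by −0.47 (SE 0.50) and was highest in WT replicate 1 (8.57) and *Sucnr1*-/- replicate 1 (8.28), the mice with the highest immediate early genes.

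*Ciart*, a repressor of BMAL1 and CLOCK, differed by 0.35 (SE 0.19). The E-box repressors split, with *Bhlhe41* (DEC2) at 0.27 (SE 0.12) and *Bhlhe40* (DEC1) at −0.28 (SE 0.23). *Rora*, the activator of *Arntl* that competes with the REV-ERB receptors, was at 0.08 (SE 0.13), *Rorb* at 0.15 (SE 0.09) on a dim probe set, and *Arntl2*, the paralog of *Arntl*, at 0.07 (SE 0.11). Within genotypes *Tef* had an r of −0.96 with *Arntl*, *Hlf* of −0.66 and *Rora* of −0.07.

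Enzymes and cofactors that adjust the clock proteins had a median absolute difference of 0.09, against 0.08 over all genes. Of 25 listed genes 22 were measured, with 10 higher and 12 lower means and a median difference of −0.02. None passed limma over all genes, and 1 gene of the 22 was higher and 0 lower at an unadjusted p under 0.05. Over all genes 3.46% were higher and 3.36% lower at that threshold, so nothing is read from this count. The gene of the list was *Hdac3*, the deacetylase that REV-ERB receptors recruit, at 0.21 (SE 0.07; limma, unadjusted p = 0.0168, adjusted p = 0.712). *Nampt*, a clock-driven enzyme of NAD synthesis, was at 0.22 (SE 0.10), *Wdr5* at −0.22 (SE 0.16) and *Timeless* at −0.20 (SE 0.18). The kinases that mark PER proteins for degradation differed little, with *Csnk1d* at 0.02 (SE 0.05) and *Csnk1e* at 0.09 (SE 0.07), both named after their values were seen.

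**Figure D5:**
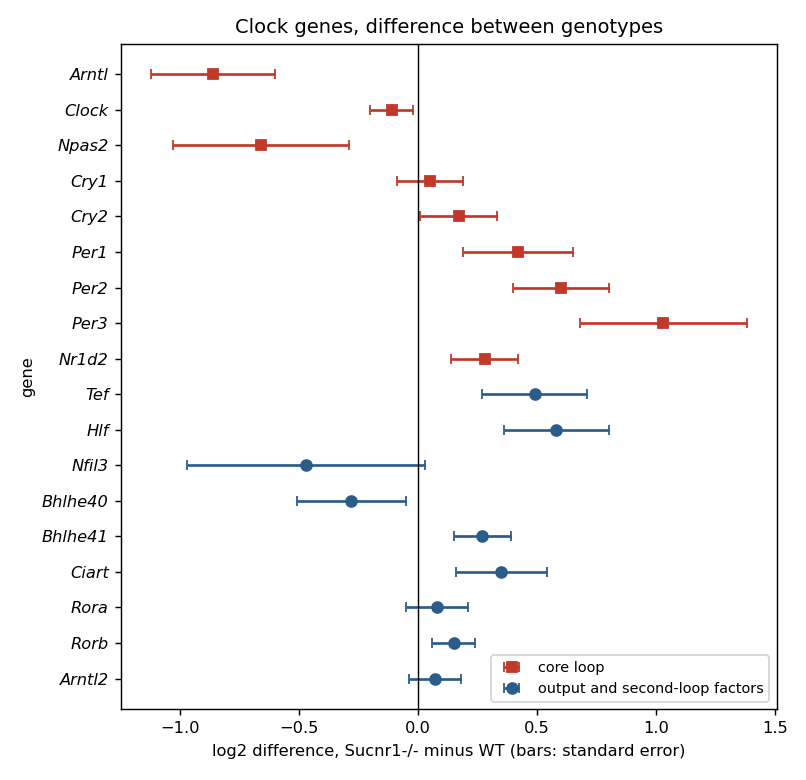
Log2 difference, *Sucnr1*-/- minus WT (horizontal axis), of the 9 core loop genes (squares) and 9 output and second-loop factors (circles), with the standard error of the limma fit as bars, from 4 mice per group. *Arntl* and *Npas2* lie farthest to the left and *Per3* farthest to the right.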

How the data were processed

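RNA of epididymal white adipose tissue from 4 WT and 4 *Sucnr1*-/- mice was measured on 1 Affymetrix Mouse Gene 1.1 ST array per mouse. The authors deposited log2 expression made with RMA, which corrects background, brings arrays to a common distribution and compresses low values. Its version and the genome build are not given in the sources used here. Of 35556 probe sets 21218 had 1 gene symbol, 1881 several and 12457 none in the annotation used, and 21185 of the first were matched to RefSeq by Entrez ID. The brightest probe set stood for each of the 18820 genes. The members and gene lists were chosen with earlier results of these data known, as were the rules: all members and measured output factors are named, with the 4 largest differences of other lists. Genotypes were compared over all genes with limma 3.58.1 in R 4.3.3 and Benjamini-Hochberg adjustment. With 4 arrays per group, the number of arrays limits precision, and p-values rest on the spread between mice. Alternatives were 2 median centrings, quantile normalization, mean of probe sets, array weights, an intensity-dependent prior, a filter on the dimmest 40% of genes, the methods' t-test, the replicate block and leaving out each array. Figures were drawn with matplotlib 3.10.9. Some listed genes are not analysed here.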

Additional observations from a re-analysis of the deposited data

Results flagged for a closer look

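Among 36 sets of 4 mice examined (18 clock genes in 2 genotypes), 1 value stood far from its group, where chance flags about 5% of groups. *Rora* in *Sucnr1*-/- replicate 1 was at 9.68, while the other *Sucnr1*-/- mice were at 9.76 to 9.77, a gap of 0.85 of the group's range. The distance is small on the log2 scale.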

How the results depend on the processing

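In the 18 alternatives run, by limma or the methods' t-test, 0 genes had an adjusted p under 0.05, clock-related genes included. The unadjusted split over all genes, 652 higher and 632 lower, was 355 and 979 with arrays centred on the median of all probe sets, and 1352 and 330 with arrays centred on the median of their genes, chosen after seeing the data. It was 369 and 535 with the dimmest 40% of genes removed, and 440 and 368 without *Sucnr1*-/- replicate 2. Among member differences under alternatives 133 kept their sign and 2 did not. *Cry1*, at −0.094 to 0.12 on leaving out 1 mouse, turned to −0.094 without WT replicate 3 and to −0.0043 without *Sucnr1*-/- replicate 1. The number of members without overlap was 1 to 5 on leaving out 1 mouse (6.03% to 10.6% of all genes), and 5 without WT replicate 1 and *Sucnr1*-/- replicate 1 together (14.2% of all genes). The median absolute difference of members was 0.21 (without WT replicate 1) to 0.57 on leaving out 1 mouse. The r of *Arntl* with *Cry1* was −0.56 to 0.52 on leaving out 1 mouse, the latter without WT replicate 3, and its r with *Per1* was 0.54 without the 2 mice named together. The cause was not tested. No source ties same-numbered mice to a shared litter or day. Their deviations correlated at 0.454, 0.141, 0.106 and 0.015, so that 1 pair missed the bound of 0.1 set for pairing, and 4 of 8 mice correlated best with their own number. The numbers were therefore not used as pairs. With the replicate block 0 genes were called, 809 higher and 1096 lower unadjusted, and the standard error was 0.13 for *Arntl* (0.26 without the block), 0.09 for *Per1* (0.23), 0.09 for *Per2* (0.20) and 0.13 for *Per3* (0.35).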

Other observations

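Glucocorticoid-responsive genes, which share hormone control with *Per1* and *Per2*, showed no common direction. Of 10 measured genes 5 had a higher and 5 a lower mean in *Sucnr1*-/- mice, none passed limma over all genes, and 1 was higher and 1 lower at an unadjusted p under 0.05. The higher gene was *Zbtb16*, at 0.45 (SE 0.20; limma, unadjusted p = 0.0496, adjusted p = 0.719). The lower gene, named after its value was seen, was *Sgk1*, at −0.15 (SE 0.06; limma, unadjusted p = 0.03, adjusted p = 0.712). *Tsc22d3* (GILZ) was at 0.49 (SE 0.33), while *Cdkn1a* was at −0.51 (SE 0.26; limma, unadjusted p = 0.0868). *Ddit4* was at 0.19 (SE 0.40) and *Fkbp5*, named after its value was seen, at 0.09 (SE 0.20). The mean of the list relative to WT was −0.14, −0.17, 0.13 and 0.19 in WT and −0.07, −0.19, 0.15 and 0.20 in *Sucnr1*-/- replicates 1 to 4, with fully overlapping groups.

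A further probe set of *Nr1d2* was dim, at 3.39 to 3.83 over all 8 mice, and was not used.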
